A study of Mus musculus with 2 samples.

Results

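The genes of the apelin, adrenomedullin and endothelin peptide systems were examined on arrays of MS-1 and SVEC4-10, mouse cell lines described as endothelial in origin. Most endothelial markers were not above background on the SVEC4-10 array, as given below. The set holds 10 genes of the 18193 that the platform annotation assigns a probe set of their own. They are the ligand genes Apln, Adm and Edn1, the receptor genes Aplnr, Calcrl and Ednrb, and the receptor accessory genes Ramp1, Ramp2 and Ramp3. The processing enzyme gene Ece1 completes the set. Members and the gene lists used below were chosen by symbol, with earlier results of these data known. The 10 genes had 20 probe sets assigned to a single gene. A further 2 probe sets were assigned to Ramp2 together with another gene and were left out. MS-1 comes from pancreatic microvasculature and was grown in medium with 5% fetal calf serum, and SVEC4-10 comes from an axillary lymph node and was grown with 10% serum. Neither line received any other treatment, both were taken at confluence after 3 to 5 days in the flask and at passage 5 or earlier, and both are lines immortalised with SV40 large T antigen. Line and serum cannot be told apart. There was 1 array per line, so no difference has a replicate check and no test between the lines was made.

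Apelin, adrenomedullin and endothelin are secreted peptides cut from larger precursors, and each acts on nearby cells through G protein-coupled receptors. Apelin is made by sprouting endothelium and binds the receptor encoded by Aplnr. Adrenomedullin relaxes vessels and is required for the formation of lymphatic vessels. Its receptor is a complex of the protein encoded by Calcrl with an accessory protein of the RAMP family, and the accessory protein sets the ligand preference: with RAMP1 the complex prefers calcitonin gene-related peptide, and with RAMP2 or RAMP3 it prefers adrenomedullin. Endothelin-1, the product of Edn1, constricts vessels through receptors on smooth muscle, whereas the type B receptor encoded by Ednrb on endothelium promotes relaxation and removes the peptide.

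Signals were available for 45101 probe sets. As background, the 95th percentile was taken over 129 probe sets for keratin-associated proteins and for receptors of odorants, pheromones and taste, which gave 16.3 for MS-1 and 17.6 for SVEC4-10. A gene was called measured when it exceeded background on at least 1 array, which held for 12583 genes. Signals below background were raised to it before a log2 ratio of MS-1 over SVEC4-10 was taken, so that a fold against background is a lower bound, written as "at least". The error of a log2 ratio, estimated from genes with several detected probe sets, was 0.49 (SD, 4406 genes). It was 0.57 for the dimmest 1469 of these genes, 0.47 for the middle 1468 and 0.42 for the brightest 1469. It holds no variation between cultures. Beside a bound against background it is only a guide, because the background side is fixed. Levels of different genes are not compared, because a probe set's signal also depends on its sequence.

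Markers of the labelled cell type, endothelium, differed between the arrays, and most were not above background on SVEC4-10. Of 12 endothelial markers, 11 exceeded background in MS-1 and 3 in SVEC4-10. All 11 were at least 4-fold higher on MS-1, as were 4.3% of all measured genes. Beside the counts of this and the other marker lists, 11475 of all 18193 genes exceeded background on MS-1 and 11231 on SVEC4-10. Pecam1 (CD31), which joins endothelial cells, read 4777 on MS-1 and 1.27 on SVEC4-10, and Cdh5, the endothelial cadherin, had 1259 on MS-1 and 1.13 on SVEC4-10. The 3 endothelial markers above background on SVEC4-10 were Kdr, Eng and Cd34, with signals there of 21.9, 24.6 and 103. The summed signal of the 12 markers was 29089 on MS-1 and 214 on SVEC4-10. For 8 fibroblast markers the sum was 83.7 on MS-1 and 23839 on SVEC4-10, for 8 smooth muscle and pericyte markers 92.7 on MS-1 and 10581 on SVEC4-10, and for 8 mesothelial markers 396 on MS-1 and 15081 on SVEC4-10. The numbers of these markers above background were 0 on MS-1 and 6 on SVEC4-10 for fibroblasts, 2 on MS-1 and 4 on SVEC4-10 for smooth muscle and pericytes, and 5 on MS-1 and 7 on SVEC4-10 for mesothelium. Thy1 and Fap of the fibroblast list and Cnn1, Myh11, Myl9 and Rgs5 of the smooth muscle list did not exceed background on any array. Within each list, the widest differences (up to 4 genes) were those of Emcn, Pecam1, Esam and Icam2 (at least 154-fold higher on MS-1), of Dcn, Col1a2, Col1a1 and Col3a1 (at least 195-fold lower on MS-1), of Tagln (at least 233-fold lower) and Acta2 (133-fold lower), and of Upk3b, Upk1b and Wt1 (at least 75.7-fold lower) and Msln (61.2-fold lower). The keratin genes Krt18 and Krt19 of the mesothelial list went the other way, 8.21-fold and at least 6.85-fold higher on MS-1. For Col1a2 the smallest difference among its probe sets was -0.39 on the log2 scale. Of the 7 leukocyte markers that had probe sets, the defining ones Ptprc, Cd3e and Itgam were below background on both arrays, and the summed signal was 3949 on MS-1 and 65.6 on SVEC4-10, of which Cd68, a lysosomal protein, gave 3645 on MS-1 and 45.9 on SVEC4-10. Of the leukocyte markers, 4 exceeded background on MS-1 and 1 on SVEC4-10, and Lcp1 had 213 on MS-1 and 5.63 on SVEC4-10, Coro1a 50.7 on MS-1 and 6.17 on SVEC4-10, and Laptm5 26.1 on MS-1 and 15.7 on SVEC4-10. These markers moved with the differences given below, and their part in those differences was not tested. In RNA from whole cultures, fewer cells expressing a gene and less RNA per cell cannot be told apart.

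Most of the adrenomedullin and apelin genes had higher signal on the MS-1 array. Apln, Adm, Calcrl and Ramp2 were at least 4-fold higher there, as were 4.3% of all measured genes. Ramp1 was at least 4-fold higher on SVEC4-10, as were 5.78% of all measured genes. Ece1, Ramp3, Edn1 and Ednrb differed by less than 4-fold, and Aplnr was not above background on either array. Of the 9 measured members, 5 exceeded background on MS-1 alone, 1 on SVEC4-10 alone and 3 on both. Of all 12583 measured genes, 1352 did so on MS-1 alone, 1108 on SVEC4-10 alone and 10123 on both. A gene above background on a single array was measured only through it, so the counts of members and their median describe the set and support nothing. The median log2 ratio of the 9 was 1.81, and that of all 12583 measured genes was -0.018. Scaling the arrays to the poly-A control transcripts, which were 1.46-fold higher on SVEC4-10, raised every log2 ratio by 0.54, so that ratios between -0.54 and 0 changed sign, and 6.97% of all genes were then at least 4-fold higher on MS-1 and 3.98% on SVEC4-10.

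**Figure D1:**
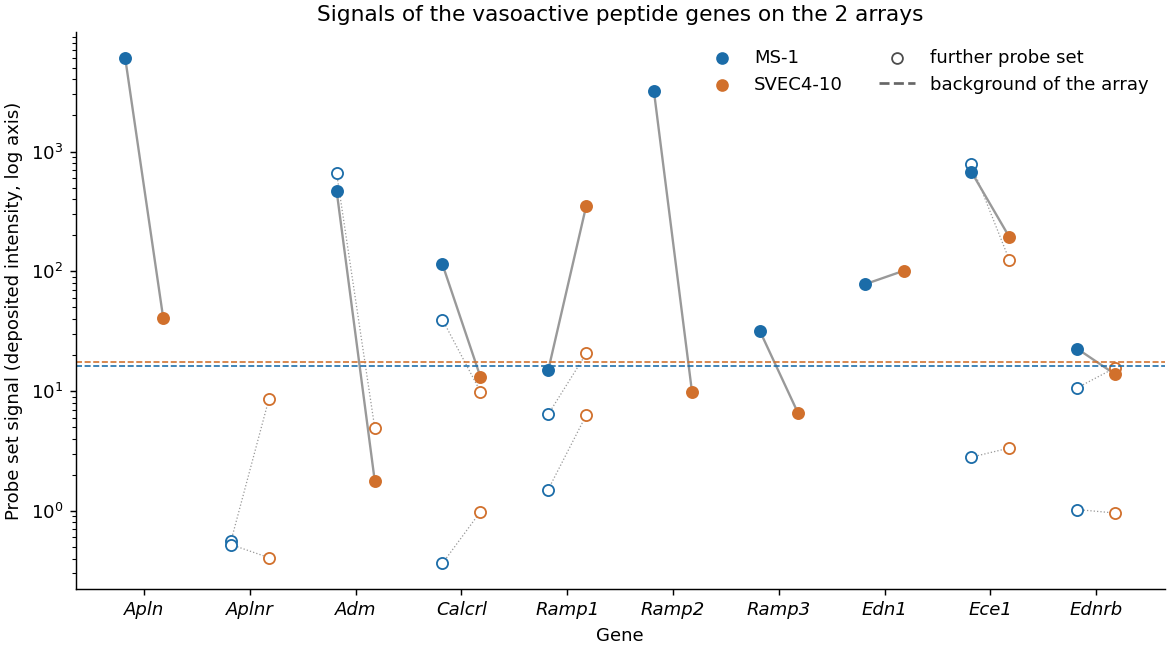
Deposited signal (log axis) of every probe set of the 10 genes on the MS-1 array (blue, left of each pair) and on the SVEC4-10 array (orange, right). Filled points joined by a solid line are the probe set that represents the gene, open points are further probe sets, and dashed lines mark the background of each array (16.3 on MS-1 and 17.6 on SVEC4-10). Apln and Ramp2 fall steeply towards SVEC4-10, Ramp1 rises, and Edn1 is nearly level.

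Apln, which encodes the apelin precursor, was far higher on MS-1. Its single probe set (1451038_at) had a signal of 6093 on MS-1 and 40.8 on SVEC4-10. The SVEC4-10 signal was still above background, so the 149-fold difference is a measured ratio and not a bound. The log2 ratio of 7.22 (error 0.42) was the highest towards MS-1 among the 10123 genes above background on both arrays. This error was chosen by the mean signal of the 2 arrays. At the brightness of the SVEC4-10 signal alone it would be that of the dimmest genes, 0.57. With 2 arrays, likeness to Apln can be judged by the ratio alone. Because Apln ranked first, the genes nearest to it are only those next in rank. The 5 genes of nearest ratio among those 10123 were Gng11, a G protein gamma subunit, Angpt2, an antagonist of the angiopoietin receptor, Cd68, Igfbp4, which binds insulin-like growth factors, and Rpgrip1. Their log2 ratios were 7.13, 6.76, 6.31, 6.06 and 6.01, although further probe sets gave 0.0099 for Angpt2 and -0.040 for Rpgrip1. Genes at background on SVEC4-10 were not ranked, and some had higher bounds, such as 7.49 for Ramp2 and 8.08 for Pecam1.

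Adm, which encodes the adrenomedullin precursor, was detected on MS-1 and not on SVEC4-10. Probe set 1416077_at had a signal of 467 on MS-1 and 1.78 on SVEC4-10. Probe set 1447839_x_at, of a class that can cross-hybridise, had 657 on MS-1 and 4.94 on SVEC4-10. Both SVEC4-10 signals lay well under the background of 17.6, and the lower bounds were at least 26.5-fold and at least 37.3-fold higher on MS-1. Without a background floor the first probe set gave a log2 ratio of 7.39 in place of 4.73, beside 7.19 for Apln, so the size of the difference depends on where background is set, its direction does not, and Adm cannot be ranked against Apln.

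Edn1, which encodes the endothelin-1 precursor, was above background on both arrays and differed little. Its probe set (1451924_a_at) had a signal of 78.2 on MS-1 and 101 on SVEC4-10. The log2 ratio of -0.37 is smaller than the error of 0.57 for probe sets of this brightness. Scaling to the poly-A controls turned it to 0.17, so no direction can be given for this ligand. Edn1 thus lay apart from Apln and Adm, at rank 6862 of the 10123 genes ordered from the highest ratio towards MS-1.

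Promoter windows of the ligand genes are shown because Apln and Adm were far higher on MS-1 and Edn1 was not. Windows for Ece1, which was higher on MS-1, and Ramp1, which was higher on SVEC4-10, are set beside them. The windows were taken from RefSeq (GRCm38.p6) and run 5′ to 3′ on the strand of the gene from 250 bases before to 50 bases after an annotated start. Capitals mark matches, on either strand, to 4 short motifs: ACGTG (the core bound by hypoxia-inducible factors), AGATAA (bound by GATA factors), TGANTCA (bound by AP-1) and GGAAGT (bound by ETS factors). The windows are chrX:48034804-48035103 (minus strand) for Apln, chr7:110627407-110627706 (plus strand) for Adm, chr13:42301226-42301525 (plus strand) for Edn1, chr4:137913308-137913607 (plus strand), the third of 4 annotated starts, for Ece1, and chr1:91179572-91179871 (plus strand) for Ramp1.
Apln: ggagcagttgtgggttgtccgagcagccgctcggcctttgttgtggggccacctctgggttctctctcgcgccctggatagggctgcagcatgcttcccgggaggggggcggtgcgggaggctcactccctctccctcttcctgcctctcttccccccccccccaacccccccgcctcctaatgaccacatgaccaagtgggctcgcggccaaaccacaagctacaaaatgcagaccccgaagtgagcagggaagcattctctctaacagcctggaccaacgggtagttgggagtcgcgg
Adm: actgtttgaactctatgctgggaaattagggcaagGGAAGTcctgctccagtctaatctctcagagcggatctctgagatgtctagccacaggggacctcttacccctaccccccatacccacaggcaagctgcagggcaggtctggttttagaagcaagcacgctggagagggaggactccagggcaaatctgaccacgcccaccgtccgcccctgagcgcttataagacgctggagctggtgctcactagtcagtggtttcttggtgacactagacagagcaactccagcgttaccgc
Edn1: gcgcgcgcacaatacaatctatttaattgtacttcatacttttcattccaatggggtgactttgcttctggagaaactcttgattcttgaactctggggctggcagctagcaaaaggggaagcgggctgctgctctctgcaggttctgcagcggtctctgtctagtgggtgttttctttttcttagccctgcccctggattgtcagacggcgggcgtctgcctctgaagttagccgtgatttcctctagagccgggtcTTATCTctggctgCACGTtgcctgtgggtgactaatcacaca
Ece1: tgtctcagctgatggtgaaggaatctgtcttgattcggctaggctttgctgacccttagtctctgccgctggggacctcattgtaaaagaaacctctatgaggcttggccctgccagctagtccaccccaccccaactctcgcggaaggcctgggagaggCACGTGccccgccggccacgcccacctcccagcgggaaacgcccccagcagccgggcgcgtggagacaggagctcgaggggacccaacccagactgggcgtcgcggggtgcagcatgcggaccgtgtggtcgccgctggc
Ramp1: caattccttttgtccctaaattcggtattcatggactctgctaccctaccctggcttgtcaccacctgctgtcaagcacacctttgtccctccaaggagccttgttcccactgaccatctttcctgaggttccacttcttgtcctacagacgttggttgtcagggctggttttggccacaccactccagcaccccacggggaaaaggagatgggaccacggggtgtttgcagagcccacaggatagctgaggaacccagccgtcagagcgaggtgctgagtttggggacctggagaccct

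In the Edn1 window, the GATA motif lay on the opposite strand 9 bases after the start, and the hypoxia core lay 22 bases after it, also on the opposite strand. The Adm window held the ETS motif 215 bases before the start. The printed Ece1 window held the hypoxia core on both strands in an overlapping palindrome about 90 bases before the start. It was the only window of the 4 Ece1 starts with a match, and the others held none of the 4 motifs. None of the 4 motifs was found in the windows of Apln and Ramp1. The table held 11 windows for 8 of the 10 genes, and beyond those printed the ETS motif also occurred in the Ramp3 window. Of all 32851 windows, 19.6% held ACGTG, 11.2% AGATAA, 7.81% TGANTCA and 23.8% GGAAGT, so a match is common by letters alone. A match here is a description of the letters and says nothing about binding.

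Ece1 encodes the membrane protease that cuts big endothelin to the active peptide, and it was higher on MS-1. Probe set 1455741_a_at had a signal of 679.7 on MS-1 and 193 on SVEC4-10, a 3.52-fold difference (log2 ratio 1.81, error 0.42). Probe set 1434177_at had 786 on MS-1 and 124 on SVEC4-10, a 6.31-fold difference. Both exceeded the error in the same direction, on either side of the 4-fold mark, and a further probe set (1441423_at) stayed below background at 2.81 on MS-1 and 3.35 on SVEC4-10. With the mean of both measured probe sets, the log2 ratio was 2.24 and passed 4-fold, as it did at 2.36 after scaling to the poly-A controls. The converting enzyme and its substrate gene Edn1 thus had ratios that differed by more than the error of each.

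Transcripts of Aplnr and Ednrb were at or near background, and Ednra, the type A endothelin receptor gene, was not analysed here. Aplnr, the apelin receptor, had signals of 0.556 and 0.523 on MS-1 and of 8.62 and 0.407 on SVEC4-10 for its probe sets 1423037_at and 1438651_a_at. All 4 values lay under background, so no fold is given, and the high Apln signal on MS-1 stood beside no detectable receptor transcript in the same culture. Ednrb, the type B endothelin receptor, barely exceeded background with 1 of its 3 probe sets: 1426314_at had 22.6 on MS-1 and 13.8 on SVEC4-10, at least 1.29-fold higher on MS-1 with a log2 bound of 0.36, which is within the error of 0.57. Its other probe sets read 10.6 and 1.03 on MS-1 and 15.7 and 0.959 on SVEC4-10, all below background.

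Calcrl, the calcitonin receptor-like receptor that binds adrenomedullin, was detected on MS-1 and not on SVEC4-10. Probe set 1425814_a_at had a signal of 115 on MS-1 and 13.1 on SVEC4-10, at least 6.51-fold higher on MS-1. Probe set 1418489_a_at had 39.55 on MS-1 and 9.87 on SVEC4-10, at least 2.25-fold higher, and 1459536_at was below background at 0.364 on MS-1 and 0.985 on SVEC4-10. The direction was the same for both detected probe sets, but the log2 ratio dropped below the 4-fold mark, to 1.93 as the mean of these probe sets, to 1.17 for the smaller ratio and to 1.70 with background doubled.

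The 3 accessory proteins that pair with this receptor did not move together. Ramp2, which makes the receptor an adrenomedullin receptor, had a signal of 3177 on MS-1 and 9.81 on SVEC4-10 by its own probe set (1418187_at), at least 180.3-fold higher on MS-1 (log2 ratio 7.49, error 0.47). The probe sets assigned to Ramp2 together with another gene had 437.9 and 617 on MS-1 and 313.8 and 463 on SVEC4-10, only 1.40-fold and 1.33-fold higher on MS-1, and which gene gave that signal was not tested. Ramp3, the other partner for adrenomedullin, had 32.0 on MS-1 and 6.62 on SVEC4-10 (1420401_a_at). This was at least 1.81-fold higher on MS-1, a log2 bound of 0.86 against an error of 0.57, and the MS-1 signal no longer counted as detected when background was doubled.

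Ramp1, which turns the same receptor towards calcitonin gene-related peptide, went the other way. Probe set 1417481_at had a signal of 14.9 on MS-1, under background, and 353 on SVEC4-10, and was at least 21.7-fold lower on MS-1 (log2 ratio -4.44, error 0.57). Probe set 1447474_at had 6.39 on MS-1 and 20.6 on SVEC4-10, close to background on the brighter side, with a log2 bound of -0.34. Probe set 1431413_at was below background on both, at 1.51 on MS-1 and 6.31 on SVEC4-10. Both detected probe sets were higher on SVEC4-10, but the call at 4-fold rests on the first alone. Thus, by probe sets of a single gene, the MS-1 array carried Calcrl with Ramp2 and a faint Ramp3 signal. The SVEC4-10 array carried Ramp1 without detectable Calcrl. Probe sets that Ramp2 shares with another gene had signal on SVEC4-10, so whether Ramp2 was present there was not settled.

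**Figure D2:**
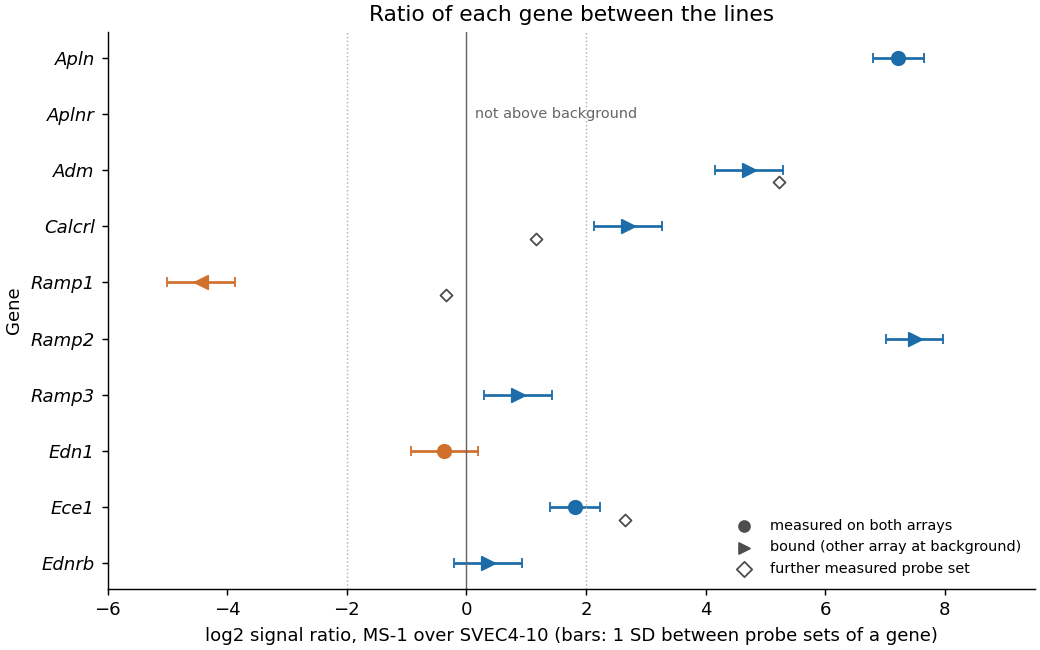
Log2 signal ratio of MS-1 over SVEC4-10 for each gene, with blue for genes higher on MS-1 and orange for genes higher on SVEC4-10, bars of 1 SD of the error between probe sets, and dotted lines at 4-fold. Circles are ratios measured on both arrays, triangles are bounds against background and diamonds are further measured probe sets. The bars come from ratios measured on both arrays and do not measure the error of a bound. Apln, at 7.22, and Ramp2, at 7.49, lie far to the right, Ramp1 lies at -4.44, and the bars of Edn1 and Ednrb cross 0.

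**Figure D3:**
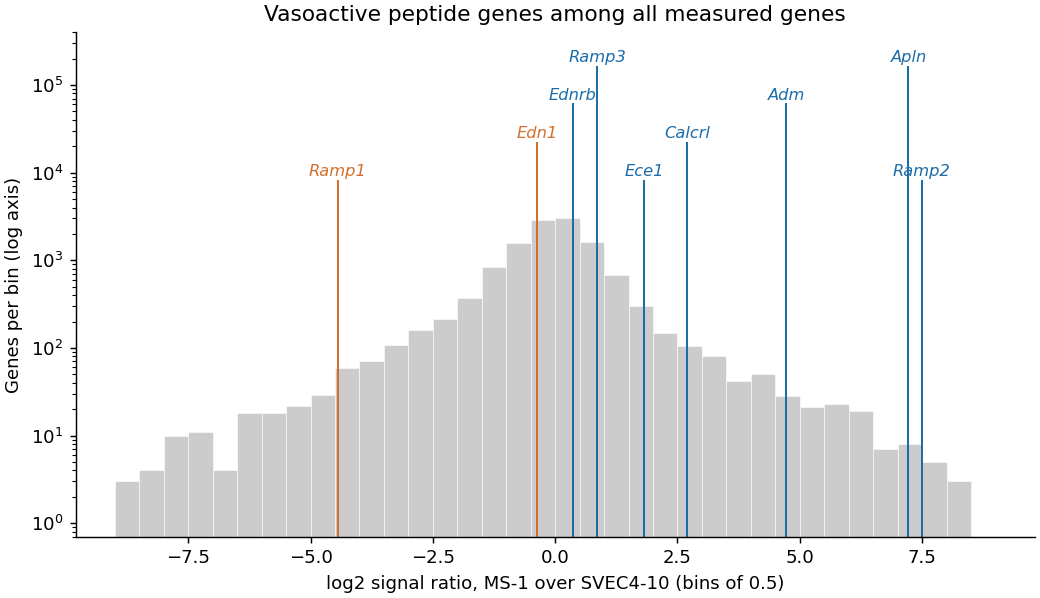
Number of measured genes (log axis) in bins of 0.5 of the log2 ratio of MS-1 over SVEC4-10, with the 9 measured members marked by lines. Edn1, Ednrb and Ramp3 lie in the bulk of the 12583 genes, whereas Apln and Ramp2 lie near the right end.

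The processing enzymes and binding partners of these peptides mostly differed by less than 4-fold, as did 11315 of all 12583 measured genes. Of 8 adrenomedullin partners, 6 had probe sets and 4 were measured. Ackr3, an atypical receptor that takes up adrenomedullin as well as the chemokine CXCL12, had a signal of 367 on MS-1 and 15.6 on SVEC4-10, at least 20.8-fold higher on MS-1. Pam, the enzyme that amidates the end of adrenomedullin, had 49.7 on MS-1 and 25.9 on SVEC4-10 (log2 ratio 0.94, error 0.57). Crcp, which assists signalling of the receptor encoded by Calcrl, had 274 on MS-1 and 162 on SVEC4-10. Adm2, a related ligand, was at background, with 17.1 on MS-1 and 12.6 on SVEC4-10. The calcitonin receptor gene Calcr and the peptide gene Calcb stayed below background on both arrays, and Calca was not analysed here.

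Of 8 endothelin partners, 5 were measured and 1 was at least 4-fold higher on SVEC4-10, as were 5.78% of all measured genes. Mme, the surface protease neprilysin that degrades endothelin, apelin and natriuretic peptides, had a signal of 0.274 on MS-1 and 135 on SVEC4-10, at least 8.27-fold lower on MS-1, and its second detected probe set gave a log2 bound of -1.26. Ece2, a relative of Ece1, had 344 on MS-1 and 236 on SVEC4-10 (log2 ratio 0.54). Furin and Pcsk7, both convertases that cut precursor proteins, had log2 ratios of 0.072 and -0.42. Edn2 was below background on both arrays, and Edn3 was at background with 17.05 on MS-1 and 2.40 on SVEC4-10. Mme and Furin were also the 2 measured genes of the 4 apelin partners; the second apelin receptor ligand Apela was below background.

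Most signalling genes downstream of these receptors differed by less than 4-fold, as did most of all measured genes. Of 28 genes for G protein subunits, adenylyl cyclases, phospholipases, arrestins and kinases, 25 were measured, of which 2 were at least 4-fold higher on MS-1, 3 on SVEC4-10 and 20 on neither (median log2 ratio -0.12), beside 4.3% of all measured genes on MS-1 and 5.78% on SVEC4-10. Gnas, the stimulatory subunit through which the adrenomedullin receptor raises cyclic AMP, had signals of 6959.9 on MS-1 and 6347 on SVEC4-10 (log2 ratio 0.13). Adcy4, an adenylyl cyclase, had 1070.3 on MS-1 and 8.50 on SVEC4-10, at least 60.8-fold higher on MS-1, and Adcy7, another, had 8.50 on MS-1 and 229 on SVEC4-10, at least 14.1-fold lower on MS-1. Gnai1, an inhibitory subunit of the kind the apelin receptor uses, had 8.05 on MS-1 and 1045 on SVEC4-10, at least 64.2-fold lower on MS-1. The related inhibitory subunits were level, Gnai2 with 2377 on MS-1 and 2097 on SVEC4-10 (log2 ratio 0.18). Gnai3 had 1324 on MS-1 and 1268 on SVEC4-10 (log2 ratio 0.062). Arrb1, an arrestin that silences activated receptors, had 643 on MS-1 and 60.4 on SVEC4-10, a 10.7-fold difference, and the other arrestin, Arrb2, had 48.8 on MS-1 and 234 on SVEC4-10, 4.80-fold lower on MS-1. The further probe sets of Gnai1 and Adcy7 gave the same direction, with smallest log2 values of -2.63 and -1.09. Over the partner and signalling genes together, 34 of 46 were measured, 3 were at least 4-fold higher on MS-1 and 4 on SVEC4-10, with a median log2 ratio of -0.032, against those same shares of all genes.

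**Figure D4:**
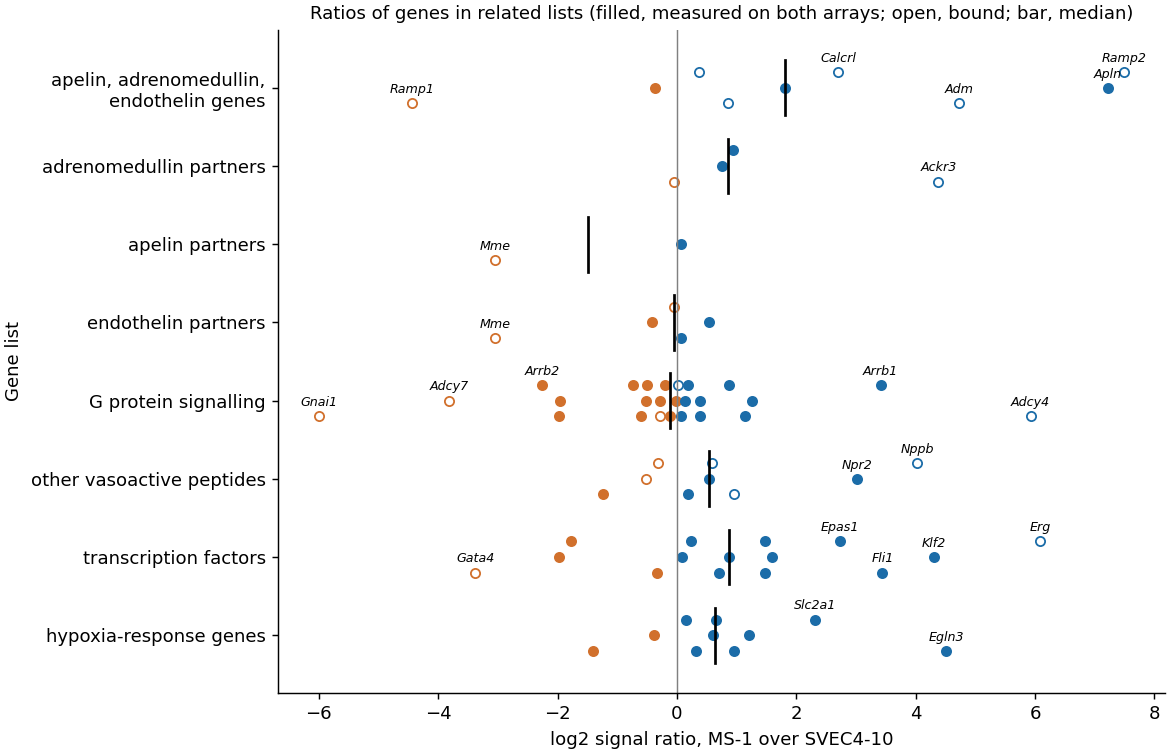
Log2 signal ratio of MS-1 over SVEC4-10 for each measured gene of 8 lists (rows), with filled points for ratios measured on both arrays, open points for bounds, blue for positive and orange for negative ratios, and black bars for list medians. Genes at least 4-fold apart are named. The median is 1.81 for the apelin, adrenomedullin and endothelin genes and -0.12 for G protein signalling, where Gnai1 and Adcy4 lie at opposite ends.

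The ratios of the members were recomputed under 9 other ways of scaling the arrays, setting background and choosing probe sets. Apln and Ramp2 stayed above 6 on the log2 scale throughout, Ramp1 stayed negative, and the value of Edn1 changed sign under poly-A scaling.

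**Figure D5:**
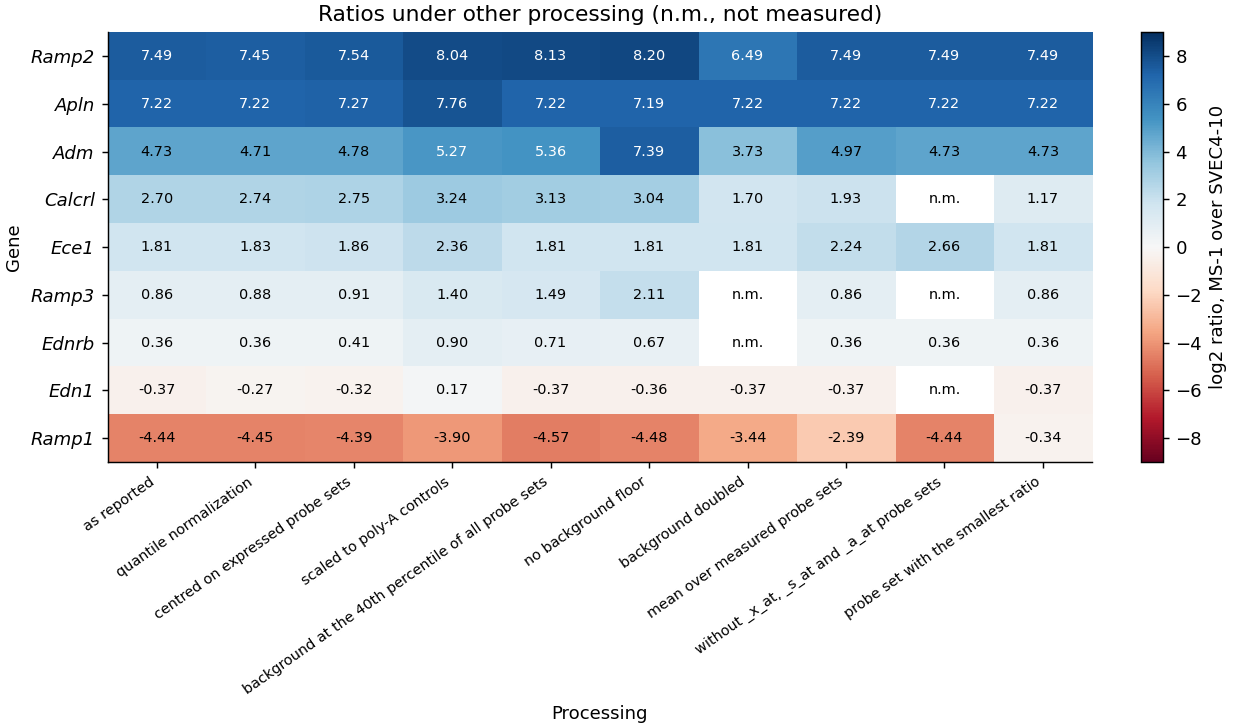
Log2 ratio of MS-1 over SVEC4-10 for the 9 measured genes (rows) as reported and under 9 other processing choices (columns), with blue for higher on MS-1, red for higher on SVEC4-10 and n.m. for not measured. Apln runs from 7.19 to 7.76, Ramp1 weakens to -0.34 with the probe set of smallest ratio, and Edn1 is 0.17 with poly-A scaling.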

How the data were processed

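Trizol-extracted total RNA (6 µg) was turned into biotinylated cRNA for Affymetrix arrays, per the labels' protocols. The authors deposited 1 linear intensity per probe set and array. The 2%-trimmed mean was 150.001 on both arrays, so they had been scaled to a common target. How the probes were summarised is not given in the sources used here. Values were used as deposited, in Python 3.11.15 with numpy 2.4.6 and pandas 2.3.3.

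Of 45101 probe sets, 34945 had a single gene in the platform annotation (34741 updated through RefSeq, GRCm38.p6), 932 had several, 9160 had none and 64 were controls. A gene was represented by its measured probe set of highest mean log2 signal, avoiding the _x_at class where possible. The 3'/5' signal ratio was 0.809 on MS-1 and 0.812 on SVEC4-10 for Gapdh, and 1.22 on MS-1 and 1.27 on SVEC4-10 for beta-actin. Hybridisation controls had a ratio of 1.05 for MS-1 over SVEC4-10, and 21 poly-A control probe sets had log2 ratios from -0.89 to -0.28. Precision is limited by the number of arrays.

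All members are named with every probe set, together with up to 4 genes of largest absolute ratio from each related list and 15 fixed genes. Other genes given in the text, such as Cdh5, Kdr, Eng, Cd34, Thy1, Fap, Ptprc, Cd3e, Itgam, Krt18, Krt19, Gnas, Gnai2, Gnai3, Arrb2, Calcb and Apela, were named after their values were seen. The members and lists were chosen with earlier results of these data known. The steps were tested on simulated data. Alternatives were other scalings (quantile, median, poly-A), other backgrounds, other choices of probe set, and 2-fold and 8-fold thresholds.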

Additional observations from a re-analysis of the deposited data

How the results depend on the processing

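No paired analysis was possible because each line has 1 array. Directions of the members other than Edn1 held under all 9 alternatives of scaling, background and probe set that gave a value. For members above background on a single array, raising the other signal to background largely fixed that direction. The bound of Ednrb, 0.36, was within the error of 0.57, so no direction can be given for it. Of 76 ratios recomputed for the 9 measured members, 52 moved by less than the error of 0.49, 23 moved by more without changing sign, and 1, that of Edn1, changed sign (0.17 when scaled to poly-A controls). The 52 include settings that could not change a value. Examples are another choice of probe set where only 1 was measured, and a doubled background for a gene that exceeded it on both arrays. The count is therefore no measure of robustness. The median log2 ratio of the members, 1.81, became 2.36 when scaled to poly-A controls, 3.69 without the less specific probe sets (6 members left) and 1.17 with the probe set of smallest ratio. With that last choice, 0 members and 2 partner and signalling genes were at least 4-fold higher on SVEC4-10, in place of 1 and 4. The share of all measured genes fell as well, to 3.96% in place of 5.78%. At a 2-fold threshold, 5 partner and signalling genes were higher on MS-1 in place of 3, and 12.1% of all measured genes were. Log2 ratios ranged from 7.19 to 7.76 for Apln, from 6.49 to 8.20 for Ramp2, from 3.73 to 7.39 for Adm, from 1.17 to 3.24 for Calcrl and from -4.57 to -0.34 for Ramp1. Ramp3 and Ednrb gave no value with background doubled, and Calcrl, Ramp3 and Edn1 none without the less specific probe sets. Signal over background limits Ramp3, Ednrb and the second probe sets of Calcrl and Ramp1.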

Other observations

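Most listed genes of other vasoactive peptides were not above background. Of 29 genes for angiotensin, natriuretic peptide, kinin, neuropeptide and related ligands and receptors, 9 were measured, as were 12583 of all 18193 genes. Of the 9, 2 were at least 4-fold higher on MS-1 and 0 on SVEC4-10, where the shares over all measured genes were 4.3% and 5.78%. Nppb, the B-type natriuretic peptide, had a signal of 286 on MS-1 and 9.99 on SVEC4-10, at least 16.3-fold higher on MS-1. Npr2, the receptor that prefers the C-type peptide, had 306 on MS-1 and 37.6 on SVEC4-10, an 8.14-fold difference. Npr3, a receptor that clears natriuretic peptides, had 35.9 on MS-1 and 84.4 on SVEC4-10, a log2 ratio of -1.23 with further probe sets as small as -0.44. Npy, neuropeptide Y, had 34.2 on MS-1 and 7.91 on SVEC4-10, at least 1.94-fold higher on MS-1.

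Transcription factors with known links to the apelin, adrenomedullin and endothelin genes differed in both directions. Of 15 listed factors, all measured, 4 were at least 4-fold higher on MS-1 and 1 on SVEC4-10 (median log2 ratio 0.88), beside 4.3% and 5.78% of all measured genes. Klf2, a flow-responsive factor known to lower Edn1 expression, had a signal of 2361 on MS-1 and 120 on SVEC4-10, a 19.7-fold difference. Gata2, a factor known to act on the Edn1 promoter, had 254 on MS-1 and 84.0 on SVEC4-10 (log2 ratio 1.59, and 2.70 by its second probe set). Erg, an ETS factor of endothelium, was at least 68.2-fold higher on MS-1, and Fli1, another, 10.9-fold, although a second probe set of Erg gave a bound of 3.49 on the log2 scale. Gata4, a factor of heart and mesoderm, had 7.35 on MS-1 and 169 on SVEC4-10, at least 10.4-fold lower on MS-1. Genes of the hypoxia response, to which Adm and Apln also belong, varied in their ratios. Hif1a had signals of 2916 on MS-1 and 2755 on SVEC4-10 (log2 ratio 0.082), and Epas1, the related endothelial subunit, had 808 on MS-1 and 122 on SVEC4-10 (log2 ratio 2.73). Of 10 listed targets, all measured, 2 were at least 4-fold higher on MS-1, 0 on SVEC4-10 and 8 on neither (median log2 ratio 0.63), beside the same shares of 4.3% and 5.78% over all genes. Egln3, a prolyl hydroxylase, had 1291 on MS-1 and 56.7 on SVEC4-10, a 22.8-fold difference, and Slc2a1, a glucose transporter, was 4.97-fold higher on MS-1. Vegfa had 124 on MS-1 and 330.1 on SVEC4-10 (log2 ratio -1.41). Ankrd37 had a log2 ratio of 1.21.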
